A study of Mus musculus with 10 samples.

Results

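The 32 genes described here encode enzymes that burn fatty acids in the liver, or are known targets or partners of PPAR-alpha, the nuclear receptor that switches such genes on. They were taken by gene symbol from the deposited array table, and where a gene had several probe sets the brightest one, by its mean over the 10 arrays, was used. Of 18193 genes with a probe set of their own, 31 were members, and all 31 passed the filter on low signal, a mean above 91, the median of all values. The remaining member, Cyp4a10, a microsomal omega-hydroxylase of fatty acids, had no probe set of its own and was read only through one listed for Cyp4a31 and Cyp4a10 together. By role, 16 of the 31 act in mitochondria, 9 in peroxisomes and 1 in ketone body formation, 2 are microsomal or cytosolic, and 3 are a regulator, a hormone and a surface enzyme.

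Fatty acids enter mitochondria as carnitine esters, made by CPT1A at the outer membrane, carried by SLC25A20 and turned back into acyl-CoA by CPT2. Acyl-CoA dehydrogenases, the trifunctional protein and thiolases then shorten the chain in repeated rounds, and liver turns much of the acetyl-CoA into ketone bodies for other organs. Peroxisomes shorten very long chains with their own set of enzymes. In fasting, fatty acids bind PPAR-alpha, which pairs with RXR on DNA and raises the transcription of both sets in rodent liver.

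All mice were of a mixed 129/B6 strain. The young Gnmt knockout liver was measured as 1 female and 1 male pool of 11 weeks, and wild-type liver likewise, each pool holding RNA of 3 mice in equal parts. Gnmt encodes glycine N-methyltransferase, a liver enzyme that uses up S-adenosylmethionine. The 6 aged arrays were all of Gnmt knockout mice: a dysplastic nodule and its adjacent liver from a female of 21 months, a tumour and its adjacent liver from a male of 18 months, and a tumour and its adjacent liver from a female of 14 months. The study's design text calls the tumours hepatocellular carcinoma (HCC), and a lesion was matched to the adjacent liver whose sex and age it shared, since the labels give no mouse numbers. The labels do not say which part of Gnmt was deleted, at what hour livers were taken, or whether mice had fed.

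Gnmt signals were 245 and 190 in the knockout pools, 12 to 329 in the aged knockout arrays and 59473 and 52140 in the wild-type pools, in keeping with the labelled genotypes. The hepatocyte markers, 8 of a list of 10 being measured, summed to 420528 to 773855 in every array, so each array held liver RNA. The ratio of the hybridisation controls BioC and BioB was 1.45 to 1.84 in the aged arrays and 3.90 to 5.09 in the young ones, so age and array run cannot be told apart. The Actb 3' to 5' ratio, a measure of RNA integrity, was 3.38 and 3.18 in the knockout pools and 2.62 and 2.60 in the wild-type pools. Its part in the genotype differences was not tested. The wild-type female pool stood apart from the other 3 young arrays in clock genes, with Arntl at 912 against 22 to 85 and Dbp at 191 against 8414 to 11097, although Nr1d1, at 590.3, lay within the range of the others, 376 to 896. The number of arrays limits the precision of every value, and with pools and single mice the tests measure the spread between these RNA samples only.

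PPAR-alpha with RXR binds a direct repeat of AGGTCA whose copies are 1 base apart (AGGTCANAGGTCA), and the members' promoters were searched for it because that is the element by which the receptor is known to act. Promoter windows of 300 bases, from 250 before to 50 after an annotated start, were taken from RefSeq on GRCm38.p6 and searched on both strands. They covered 27 of the 32 members with 29 windows. No member window held the repeat with at most 1 mismatch, which 0.554% of all 32851 windows did. With at most 2 mismatches, 2 member windows held it, those of Acot4 and Slc25a20, and so did 3.86% of all windows. The CACGTG E-box, which clock factors bind, was in 2 of the 29 member windows (6.90%), those of Acot4 and Fgf21, and in 7.15% of all windows. These shares say only which letters lie in the windows. The 2 windows with a repeat are shown with the repeat in capitals, which in Acot4 begins 13 bases before that start and reads on the opposite strand, and in Slc25a20 lies just after the start. The Acot4 window belongs to a start that lies inside the annotated gene, whereas that of Slc25a20 is the gene's first base.
Acot4, chr12:84038129-84038428, plus strand: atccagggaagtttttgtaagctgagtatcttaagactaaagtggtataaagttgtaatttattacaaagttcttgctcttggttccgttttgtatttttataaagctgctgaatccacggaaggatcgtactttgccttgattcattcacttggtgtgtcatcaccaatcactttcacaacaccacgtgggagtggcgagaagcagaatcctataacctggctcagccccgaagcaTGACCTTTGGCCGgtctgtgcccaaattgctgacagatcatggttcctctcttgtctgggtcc
Slc25a20, chr9:108661886-108662185, plus strand: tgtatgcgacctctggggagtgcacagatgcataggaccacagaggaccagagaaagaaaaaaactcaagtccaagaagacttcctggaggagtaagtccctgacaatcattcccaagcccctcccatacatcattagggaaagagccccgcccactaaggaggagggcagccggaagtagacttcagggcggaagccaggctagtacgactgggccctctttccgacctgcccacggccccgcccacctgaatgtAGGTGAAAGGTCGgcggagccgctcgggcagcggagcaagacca

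The first comparison asked how oxidation genes stood in Gnmt knockout liver at 11 weeks, before lesions. No member passed the test, at a limma adjusted p below 0.05 over 11507 genes, where 0.765% of all genes did. At an unadjusted p below 0.05 there were 9 members and 2169 genes in all. The median difference was 0.08 on the log2 scale over members, against -0.05 over all genes, and 18 members were higher and 13 lower. Both knockout pools lay above both wild-type pools in 8 members (25.8%, against 21.6% of all genes) and below both in 5 (16.1%, against 26% of all genes). Marker sums also parted the genotypes. The endothelial sum was 5718 and 5641 in knockout and 14226 and 10871 in wild-type pools, and the Kupffer cell and macrophage sum 16102.5 and 15409.5 in knockout and 27754 and 18488 in wild-type pools. The hepatocyte sum was 537836 and 491042 in knockout and 618334 and 538907 in wild-type pools. The adipocyte sum was 1742 and 8752 in knockout and 943 and 1202.5 in wild-type pools, but its genes differed in direction. Cidec was at 1036 and 3556 in knockout and 60.5 and 121 in wild-type pools, and Fabp4 at 473 and 4745 against 420 and 624. Adipoq, at 3.6 and 8.3 against 31.5 and 26.4, and Plin4, at 131 and 285 against 373 and 368, were lower in both knockout pools. The part of these sums in the genotype differences was not tested.

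Among mitochondrial members, Acot2, a thioesterase that releases free fatty acid from acyl-CoA in the matrix, had signals of 2239 and 2043 in the knockout female and male pools and 1025 and 592 in the wild-type female and male pools. The genotypes did not overlap, and the difference was 1.44 ± 0.25 (log2, SE, n = 2 pools a genotype, adjusted p = 0.0602). Acot2 passed the test under 4 of 13 alternatives, with an adjusted p of 0.0158 to 0.843. A dimmer Acot2 probe set, at 63 to 209 in most arrays and 16 in the male HCC, gave 1.03 in females and -0.06 in males. Slc25a20, the carnitine-acylcarnitine carrier, was at 12963 and 20812 in the knockout pools and 9490 and 11719.5 in the wild-type pools (0.64 ± 0.19, adjusted p = 0.166). The pools did not overlap, and the knockout male pool was the highest of all 10 arrays, while a second probe set gave 0.07 in females and 0.33 in males. Eci1, which shifts double bonds so that unsaturated chains can enter the spiral, was at 13937 and 13880 in knockout and 9058 and 10369.5 in wild-type pools (0.52 ± 0.18, adjusted p = 0.211). The 8 enzymes of the spiral itself lay between -0.39 and 0.28, with 5 higher and 3 lower, and Acadm, the medium-chain acyl-CoA dehydrogenase, was the lowest of them.

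Peroxisomal members spread wider, from -0.88 for Acot4 to 1.54 for Eci3. Acaa1a, a 3-ketoacyl-CoA thiolase, was at 1662 and 2332 in the knockout pools and 649 and 899 in the wild-type pools, a difference of 1.35 ± 0.22 (adjusted p = 0.0530). It passed under 5 of 13 alternatives, with an adjusted p of 0.0141 to 0.901. Those pools did not overlap, but the other Acaa1a probe set, at 795 and 1680.5 in knockout and 1257 and 1288 in wild-type pools, gave -0.65 in females and 0.38 in males. The near-identical Acaa1b cannot be told apart from Acaa1a by every probe, and its own probe set had 0.31 in females and -0.36 in males. Ehhadh, the bifunctional enzyme of the peroxisomal spiral and a classic PPAR-alpha target, had signals of 22385 and 21421 in the knockout pools and 13735 and 13543 in the wild-type pools. This was 0.68 ± 0.17 (adjusted p = 0.122), with the genotypes apart and the pools of each close together. Acot4, a peroxisomal thioesterase, was at 702 and 308 in knockout and 933 and 811 in wild-type pools (-0.88 ± 0.30, adjusted p = 0.195), so that both knockout pools were lower, the male one by more.

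Cyp4a14, an omega-hydroxylase induced by PPAR-alpha, was at 18793 and 11471 in the knockout pools and 38568 and 10657 in the wild-type pools. The wild-type female pool alone was high, and the groups overlapped. The probe set for Cyp4a31 and Cyp4a10 had 42489 and 31001 in knockout and 55777 and 38760.5 in wild-type pools, a difference of -0.39 in females and -0.32 in males. Acot1, the cytosolic thioesterase, was at 1941 and 2349 in knockout and 3413 and 3465 in wild-type pools, below in both sexes (-0.68 ± 0.21, adjusted p = 0.171). A probe set for Acot2 and Acot1 together followed Acot1, at -0.57 in females and -0.78 in males, and the Acot1 to Acot4 genes are close paralogues on chromosome 12. Fgf21, the fasting hormone that liver secretes, was at 177 and 233 in knockout and 468 and 251 in wild-type pools. As with Cyp4a14 and with Pdk4, the kinase that blocks glucose oxidation, its highest young signal was in the wild-type female pool, the array with the different clock genes, and the part of those genes in the differences was not tested. Vnn1, a pantetheinase at the hepatocyte surface, was at 11562 and 12204 in knockout and 7280.5 and 7049.7 in wild-type pools (0.73 ± 0.19, adjusted p = 0.122), and its dimmer probe set ran the same way, at 0.69 and 1.13. Ppara itself was at 7986 and 7330.3 in knockout and 6050 and 8319 in wild-type pools and overlapped between genotypes.

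**Figure D1:**
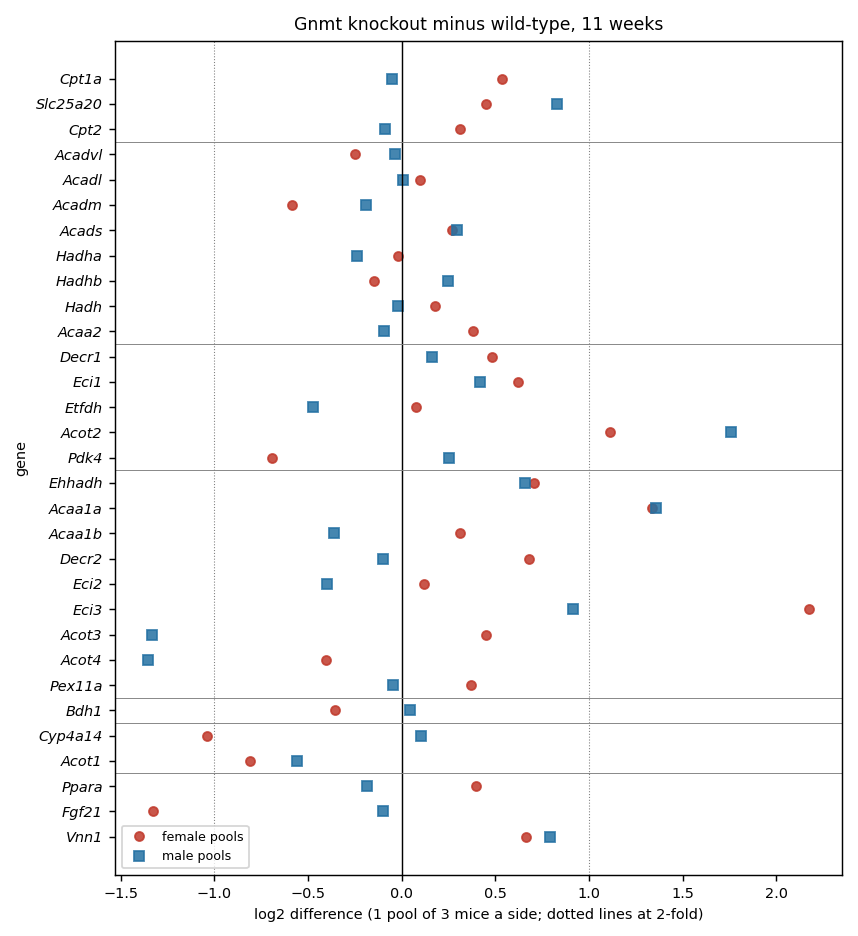
Each row is a member, and each point the log2 difference between a Gnmt knockout pool and the wild-type pool of the same sex at 11 weeks (female circles, male squares), with 1 pool a side and hence no error bar. Acot2, Acaa1a, Ehhadh, Slc25a20, Eci1 and Vnn1 lie right of 0 in both sexes, Acot1 and Acot4 left of it, and the mitochondrial spiral stays close to 0.

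Between the sexes at 11 weeks, 1 member passed the test, 3.23% of 31 against 0.243% of all genes. Eci3, a peroxisomal enoyl-CoA isomerase, was at 1270.2 in the knockout female and 268 in the wild-type female pool, and at 42.5 in the knockout male and 14.7 in the wild-type male pool. It rose in females by 3.81 ± 0.45 (n = 2 pools a sex, adjusted p = 0.0348), although 14.7 is below the 16.8 added to every signal, which limits the size. Its mean signal of 290.3 passed the filter through the female arrays, at 93.9 to 1270.2, since the male arrays were at 13.3 to 42.5. The gene was thus admitted to the test by the sex in which it was high. Over 13 alternatives its adjusted p ranged from 0.00605 to 0.255. The call was lost when that constant was doubled, with no filter and with no variance trend. Acot3, a peroxisomal thioesterase, had 5737 and 4190.5 in the knockout and wild-type female pools and 1024 and 2601 in the knockout and wild-type male pools. The sexes did not overlap (1.58 ± 0.40, adjusted p = 0.351). Whether the genotype difference itself depended on sex was tested with the spread of the aged arrays, and no member passed, nor did any gene (0% of 11507, 307 at an unadjusted p below 0.05). The largest member term was that of Acot3, at 1.78 ± 2.18, and that of Cyp4a14 was -1.14 ± 0.75 (adjusted p = 1.0 for both).

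Lesions were set against adjacent liver of the same mouse. Over the 2 HCC pairs no member passed, against 0.0869% of all genes, and over all 3 lesion pairs none passed, against 0.00869%, which is 1 gene. At an unadjusted p below 0.05 there were 4 members among 873 genes over the HCC pairs and 6 among 1125 over all 3 pairs. The lesion was below adjacent liver in 3 of 3 pairs in 11 members (35.5%, against 16.1% of all genes) and above in 3 (9.68%, against 16.1%). The median difference was -0.27 over members, against 0.01 over all genes, and 26 of 31 members were lower on average. The members lower in all 3 lesions included Cpt2, Acadvl, Acadl and Acads of the mitochondrial route, Eci1 and Etfdh, which feeds electrons from the dehydrogenases into the respiratory chain, and Acaa1a and Eci2 of the peroxisome. The other Acaa1a probe set gave 0.19, -0.64 and -0.06 in the nodule, male HCC and female HCC. A dimmer Cpt2 probe set was higher in each lesion, by 0.29, 1.04 and 0.42 in the same order. In tissue samples, fewer hepatocytes and less RNA per hepatocyte cannot be told apart. The hepatocyte marker sums were 420528, 773855 and 427356 in the nodule, male HCC and female HCC, and 558815, 679367 and 488368 in their adjacent livers. Other marker sums were higher in all 3 lesions. The endothelial sum was 8046, 14818 and 6586 in lesions and 5529.6, 10188 and 6242.5 in adjacent livers. The cholangiocyte sum was 1104, 4899 and 2845 in lesions and 859.5, 1891 and 815 in adjacent livers, but its genes did not all rise. Within it, Tspan8 was at 406, 3983 and 2021 in lesions and 49.6, 750 and 224 in adjacent livers. Sox9 was at 310, 544 and 238 against 348, 610 and 236, and Krt19 at 149, 26.7 and 190 against 96.1, 210.5 and 50.4. The adipocyte sum was 3343, 5835 and 32141 in lesions and 1271, 5355 and 3219 in adjacent livers. Within it, Fabp4 was at 2795, 4914 and 27809 in lesions and 701, 4152 and 1254.5 in adjacent livers. Plin4 was at 113, 167 and 313.5 against 41.6, 132 and 175. Cidec, at 336, 627 and 4000 against 472, 1008 and 1747, was lower in the nodule and male HCC. The 18S 3' signal was 20.9, 19.5 and 21.5 in lesions and 79.9, 57.3 and 79.1 in adjacent livers. The part of these measures in the lesion differences was not tested.

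Cyp4a14 was the member with the steepest difference in the same direction in all 3 pairs. Its signals were 4441 in the nodule, 460.2 in the male HCC and 2704 in the female HCC, and 15195, 906 and 15265 in the adjacent liver of each. Every lesion was below its own adjacent liver, by -1.77, -0.95 and -2.49, and the fit over 3 pairs gave -1.74 ± 0.30 (adjusted p = 0.226). Without the male pair, the same gene passed the test at -2.13, among 135 genes in all (adjusted p = 0.0126, the lowest of 12 alternatives, the highest being 0.999). The Cyp4a31 and Cyp4a10 probe set was also lower in each lesion, by -0.32, -1.37 and -0.75.

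Vnn1 went the other way. It was at 8438 in the nodule, 9016 in the male HCC and 18799.8 in the female HCC, and at 3782, 4309 and 8091 in the adjacent livers. The 3 differences were 1.15, 1.06 and 1.21, close to one another, and the fit gave 1.14 ± 0.17 (adjusted p = 0.156). Its other probe set had 1.15, 0.95 and 1.60. Bdh1, which interconverts the ketone bodies acetoacetate and beta-hydroxybutyrate, was above adjacent liver in each pair by at most 0.41, and Pex11a, which acts in the division of peroxisomes, by 0.03, 0.15 and 0.90. A second probe set gave -0.03, 0.60 and 0.45 for Bdh1 and 0.18, -0.18 and 0.84 for Pex11a, so neither was higher in every pair by both probe sets.

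Fgf21 was high in 1 array. The female HCC had 1258, its adjacent liver 186, and the other 8 arrays 121 to 468. In the same tumour Pdk4 was at 1741.5, against 1070.3 in its adjacent liver, the highest signals of that gene in the series. Acot2 and Decr1, the mitochondrial dienoyl-CoA reductase, were also higher there than in adjacent liver, by 0.90 and 0.83, whereas both were lower in the male HCC and in the nodule. The adipocyte marker sum, 6 of 8 genes being measured, was 32141 in this tumour and 3219 in its adjacent liver, most of it Fabp4 at 27809. Cidec was at 4000 and 1747 and Plin4 at 313.5 and 175. Adipoq, an adipocyte hormone, was at 3.4 and 13.3, both below the constant of 16.8. The part of adipocyte markers in these values was not tested.

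The nodule was compared by values alone, at 2-fold or more. It was above its adjacent liver in 1 member, Vnn1 (3.23%, against 8.63% of all genes), and below in 5 (16.1%, against 4.36%), namely Acaa1a, Eci3, Acot3, Acot4 and Cyp4a14. The other probe sets of Acaa1a and Acot4 gave 0.19 and -0.69, so for both genes a 2-fold fall depended on the probe set. Acot3 was at 929 in the nodule and 4972 in adjacent liver, and Eci3 at 93.9 and 704. Of the aged arrays, the adjacent liver of this female had the highest signal of both. Ehhadh, by contrast, was at 22478 in the nodule, the highest of the 10 arrays, and 18759 in adjacent liver.

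**Figure D2:**
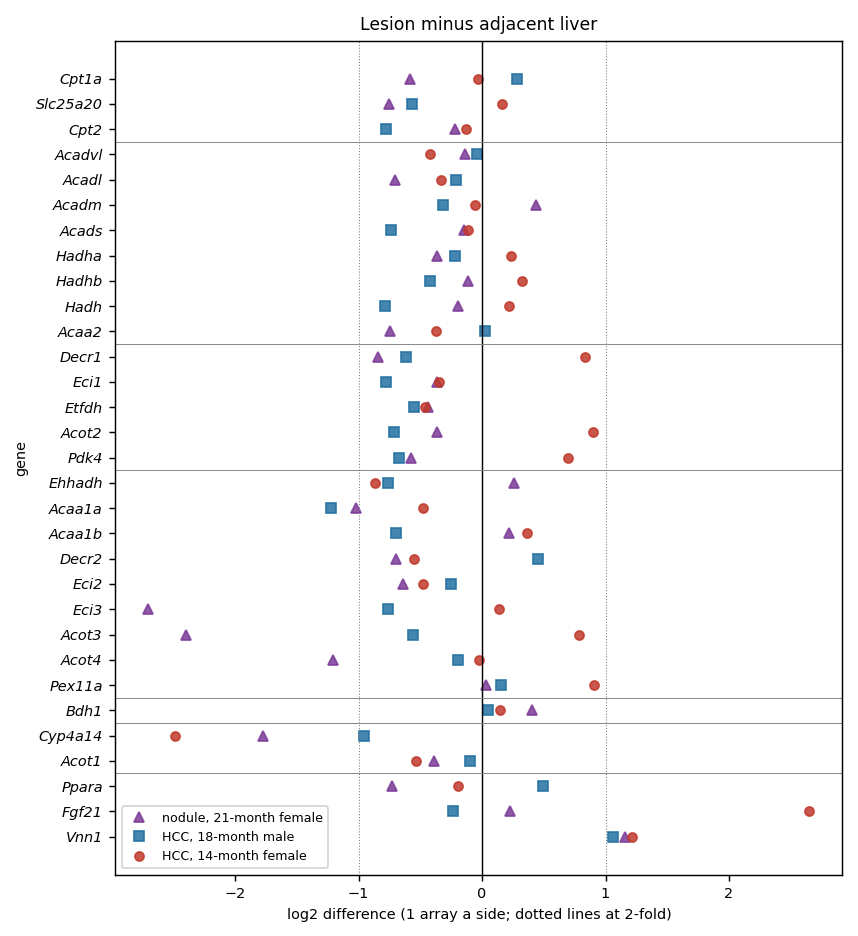
Each row is a member, and each point the log2 difference between a lesion and the adjacent liver of the same mouse (nodule triangles, male HCC squares, female HCC circles), with 1 array a side. The 3 points of Vnn1 lie together just right of 1, those of Cyp4a14 lie left of -0.95, and Fgf21 reaches 2.65 in the female HCC only.

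Adjacent liver of aged knockout mice was next set against knockout liver of 11 weeks. Neither any member nor any gene passed (0% of 11507), and at an unadjusted p below 0.05 there were 16 members and 1393 genes. By the brightest probe set of each gene, the direction was nearly uniform. All 3 adjacent livers lay below both young pools in 18 of 31 members (58.1%, against 10.6% of all genes) and above both in none (0%, against 16.9%). Each adjacent liver was below the young pool of its own sex in 27 members (87.1%, against 17.2% of all genes), and in 0 members was each above it (26.1% of all genes). The exceptions were Pdk4, Acaa1a, Ppara and Fgf21. These counts depended on the probe set. By another probe set, Cpt1a, Slc25a20, Acadl, Hadhb, Acaa2, Acot2 and Pex11a did not lie below both young pools in all 3 adjacent livers. Those of Acadl and Acot2 were dim. By their other probe sets, Decr1, Bdh1 and Vnn1 did lie below. The median difference was -0.68 over members, against 0.09 over all genes. Per mouse the median was -0.31 in the 21-month female, -0.95 in the 18-month male and -0.41 in the 14-month female, so the females differed less. Age, array run, pooling and a liver that bears a lesion cannot be told apart in this comparison. The B and plasma cell sum was 23096, 33884 and 17545 in the 3 adjacent livers and 15262 and 15829 in the young knockout pools, and the cholangiocyte sum 859.5, 1891 and 815 in adjacent livers and 672 and 236 in the young knockout pools. Most of the B and plasma cell sum was Xbp1, which hepatocytes also express, at 12451, 29258 and 13716.5 against 14391 and 14472. Ighm was at 8854, 2449 and 2515 against 195 and 664. The part of these measures was not tested.

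Acot1 had the lowest p-value of the members here. It was at 824 in the 21-month female, 276 in the 18-month male and 903 in the 14-month female, against 1941 and 2349 in the young female and male knockout pools (-1.95 ± 0.42, adjusted p = 0.357). All 3 aged livers were below both pools. Decr1 was at 9575, 7812 and 6876 in the same order, against 15506 and 16159 in the young pools (-0.98 ± 0.23, adjusted p = 0.382). Cpt1a, the gate of the mitochondrial route, was at 14679, 5668 and 11373, against 18726 and 16336 (-0.96 ± 0.29, adjusted p = 0.393). This depended on the probe set. Its other probe sets were at 3449, 2218 and 3930 against 3335 and 2215, and at 1783.5, 1485 and 2036 against 1542 and 1522. By the probe sets used, the spiral enzymes had differences of -0.65 to -0.26, all 8 being lower in each of the 3 mice, and the peroxisomal members -2.34 to -0.13. Another Hadhb probe set was higher in each mouse, at 9940, 10823 and 10978 against 8883 and 8814. Another Acaa2 probe set was at 16115, 9021 and 14909 against 15986 and 14046. A further Acaa2 probe set, a dim Hadhb one and the next brightest of Hadh were lower in each mouse. The dimmest of Hadh was higher in the 14-month female. Acot3 was nearly as high in the adjacent liver of the 21-month female, 4972, as in the young female knockout pool, 5737, but was 336 in that of the 14-month female.

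**Figure D3:**
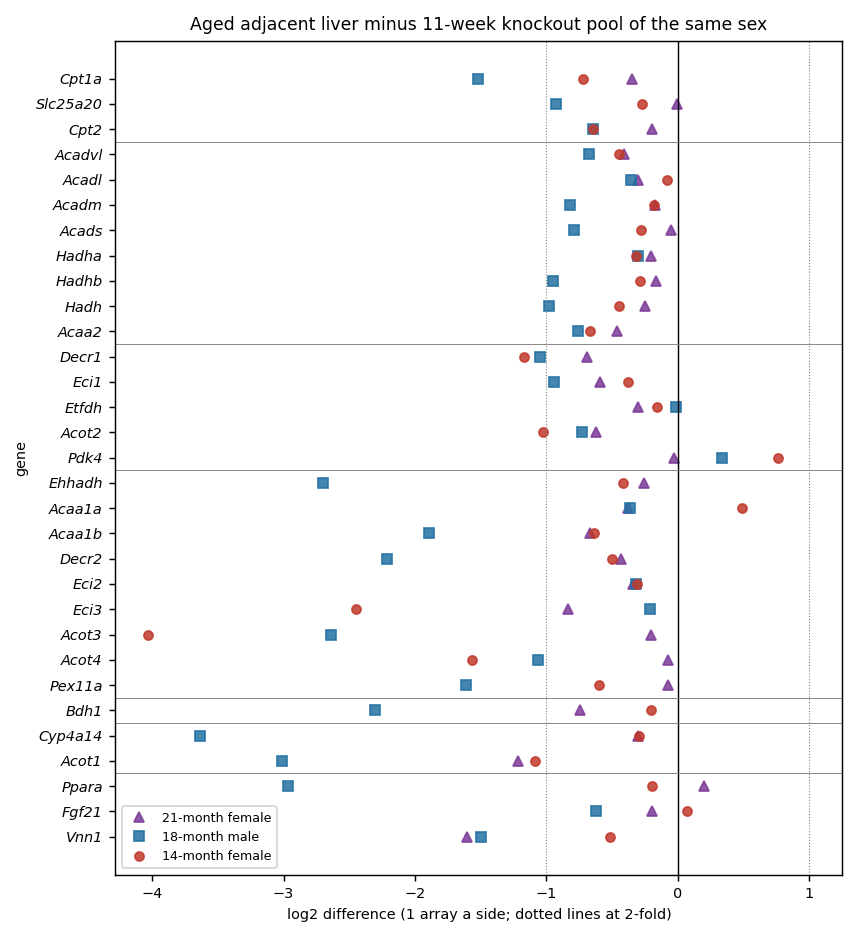
Each row is a member, and each point the log2 difference between an adjacent liver of an aged knockout mouse and the 11-week knockout pool of the same sex (21-month female triangles, 18-month male squares, 14-month female circles), with 1 array a side. Nearly every point lies left of 0, and the 18-month male is farthest left in Cyp4a14, Acot1, Ppara, Ehhadh and Bdh1, where it lies below -2.

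The 18-month male had the lowest signals of most members. Both of its arrays, HCC and adjacent liver, lay below all 4 other aged arrays in 20 of 31 members (64.5%, against 15.1% of all genes) and above all 4 in none (0%, against 18.7%). They lay below all 8 other arrays, young ones included, in 19 members (61.3%, against 9.36%). The mean of its 2 arrays was below that of the 4 aged female arrays in 31 of 31 members, with a median of -0.69 against 0.04 over all genes. This mouse is the only aged male, so mouse, sex and age cannot be told apart, and no test was made. Of those 20 members, Eci3 was the exception among the young arrays, at 42.5 in the knockout male pool and 14.7 in the wild-type male pool. Etfdh, at 5559 in the knockout male pool, was close to the 5504 of this mouse's adjacent liver.

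Ppara, the receptor, was at 1306 in the male HCC and 925 in its adjacent liver, against 5496 to 9145 in the 4 aged female arrays and 6050 to 8319 in the young arrays. All 3 Ppara probe sets were lowest in these arrays, the other 2 being at 1289 and 760.0, and at 1336.5 and 1199, in this mouse. Among the receptor's peroxisomal targets, Ehhadh was at 1924.5 in the male HCC and 3278 in its adjacent liver, against 9191 to 22478 in the aged female arrays. Acaa1b was at 7182 and 11632, against 35385 to 46626, and Decr2, the peroxisomal dienoyl-CoA reductase, at 1627 and 1187, against 2790.0 to 4526.5. In none of these genes did the mouse overlap with any other array. Eci2 and Acaa1a, also peroxisomal, did overlap with the aged female arrays. Eci2 was at 5877 and 6989 against 5613 to 8956, and Acaa1a at 764 and 1809 against 619 to 2339.5. So did Angptl4, which PPAR-alpha induces, at 3639 and 5019 against 2526 to 5490.5.

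The ketogenic Bdh1 was at 1833 in the male HCC and 1775 in adjacent liver, against 4200.4 to 6771 in the aged female arrays and 7056 to 9049 in the young ones. Hadh, the short-chain hydroxyacyl-CoA dehydrogenase, was the mitochondrial member farthest below, at 12761 and 22020.0 against 38176 to 44404 in the aged female arrays. The Cyp4a31 and Cyp4a10 probe set was at 845 and 2204, against 14592 to 25957 in the aged female arrays. Other steps were little apart by the probe sets used. Acadvl and Acadl, the very long-chain and long-chain dehydrogenases, differed from the aged females by -0.02 and -0.08. Acaa2, the mitochondrial thiolase, differed by -0.14, but this depended on the probe set. Another Acaa2 probe set was at 3328.6 in the male HCC and 3177.8 in adjacent liver, below the 4129.9 to 8853.3 of the aged female arrays. A further one, at 9814.3 and 9021.3, overlapped with the aged female arrays, at 9228.1 to 16115.4. Vnn1 in this mouse, 9016 and 4309, lay within the range of the aged female arrays, 3782 to 18799.8.

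Several other measures moved with this mouse. The neutrophil marker sum, 6 of 8 genes being measured, was 15231 in its HCC and 15093 in its adjacent liver, against 765 to 1659.5 in the aged female arrays, mostly from S100a8 at 8788 and 10076. Ngp, of neutrophil granules, was at 1466 and 1238, against 16 to 174, whereas Mpo and Elane overlapped between the mice. The B and plasma cell marker sum was 37129 and 33884, against 14028 to 23096, mostly from Xbp1, which hepatocytes also express. The hepatocyte marker sum was 773855 and 679367, against 420528 to 558815, so that Alb, Apoa1 and like transcripts were not low where the oxidation genes were. The Kupffer cell and macrophage sum was 34484 and 29469, against 14675 to 28983, and the endothelial sum 14818 and 10188, against 5530 to 8046. The stellate cell and fibroblast sum was 25323 and 26162, against 12718 to 20291. The Gapdh 3' to 5' ratio, a sign of RNA quality, was 1.29 and 1.33 in this mouse, against 0.854 to 1.07 in the aged female arrays and 0.938 to 1.09 in the young ones, and the Actb ratio of its adjacent liver, 3.62, was the highest of the 10 arrays. Among clock genes, Dbp was at 42 and 214, against 2390 to 7798, and Nr1d1 at 21.5 and 58.1, against 545 to 1437, while Arntl was at 847 and 553, against 14 to 382. Per3 was at 63 and 46, against 242 to 497. Ppara transcript is known to cycle with the time of day in mouse liver, and the part of the clock genes, the cell type markers and RNA quality in these values was not tested.

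**Figure D4:**
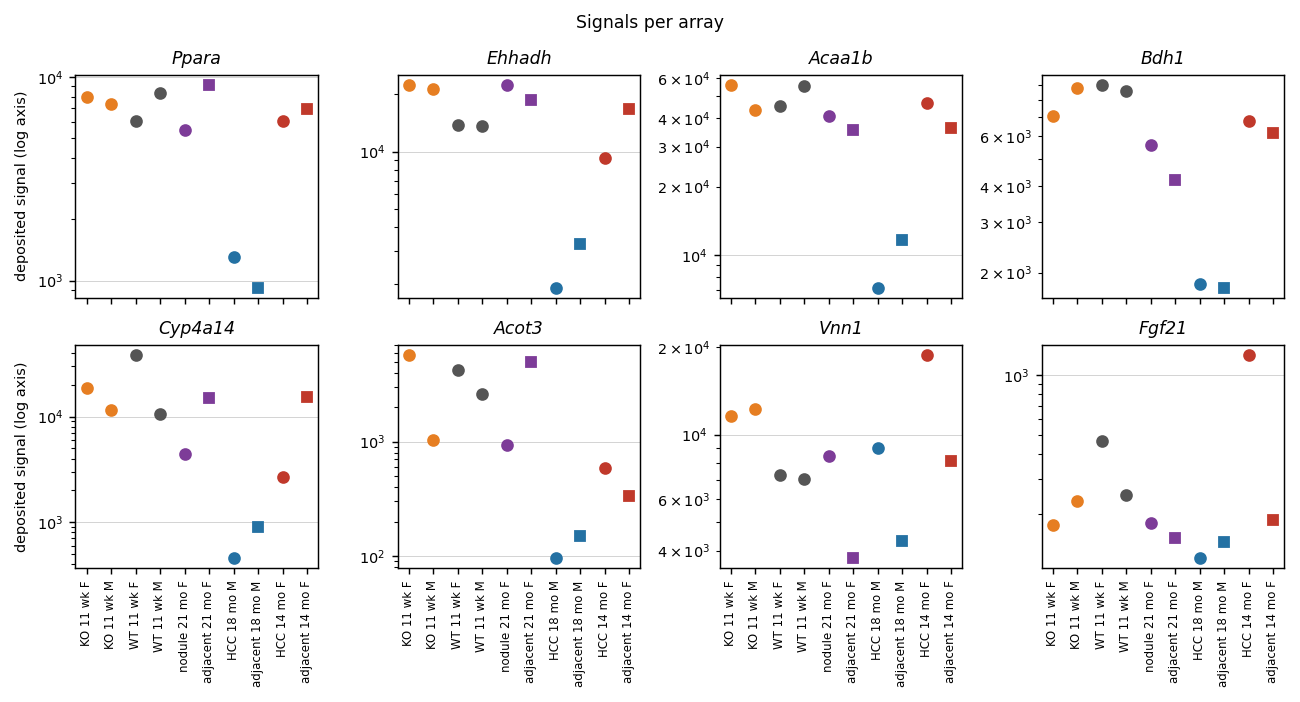
Deposited signals (log axis) of 8 members in each of the 10 arrays, with young knockout pools in orange, young wild-type pools in grey, and lesion (circles) and adjacent liver (squares) of each aged knockout mouse in 1 colour. The 2 blue points of the 18-month male are the lowest in Ppara, Ehhadh, Acaa1b, Bdh1, Cyp4a14 and Acot3, and the female HCC is the highest in Vnn1 and Fgf21.

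Across the 10 arrays the members varied unequally. The highest signal was 95.5 times the lowest in Eci3, 83.8 times in Cyp4a14 and 59.4 times in Acot3, against 1.89 times in Hadha, the alpha subunit of the trifunctional protein, and 2.02 times in Acadl. The lowest array was the male HCC in 18 members, the adjacent liver of that mouse in 5 and the nodule in 5. The remaining 3 members were lowest in the female HCC, in the adjacent liver of the 21-month female and in the wild-type male pool. After those 3, the widest ranges were 13.5 times in Acot1, 11.7 times in Ehhadh and 10.4 times in Fgf21.

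**Figure D5:**
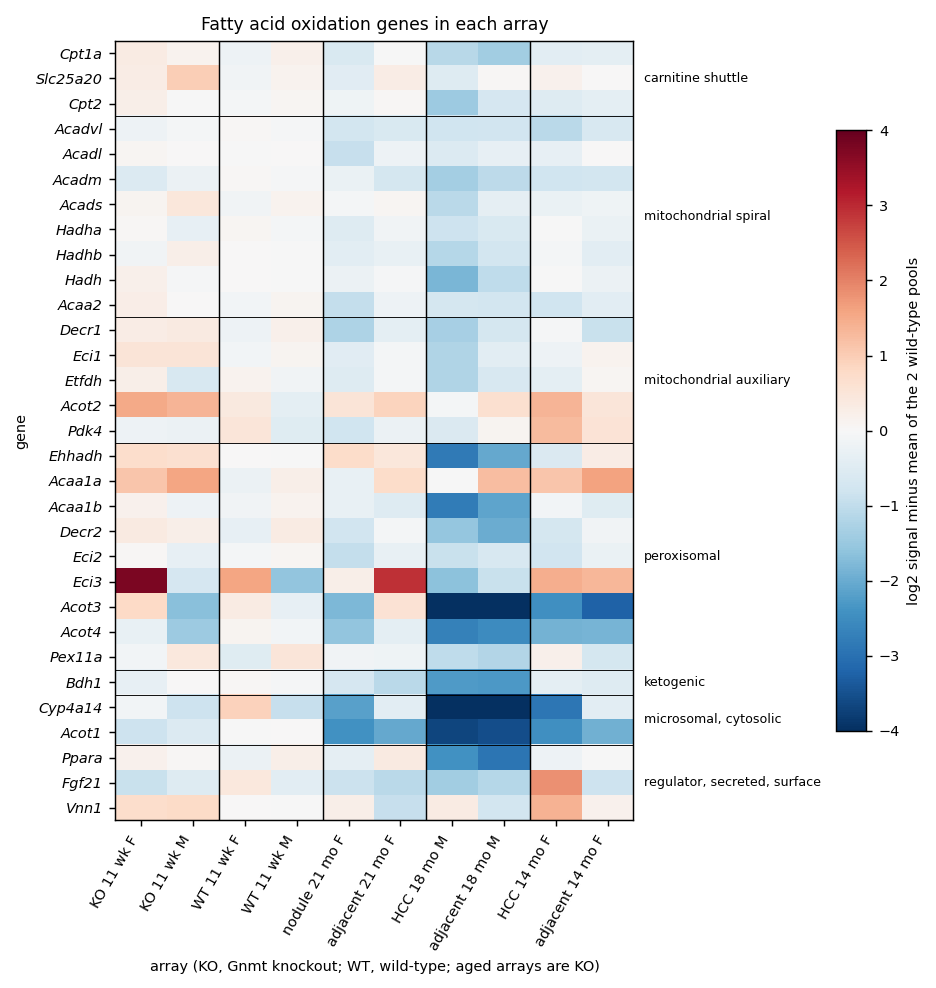
Rows are the 31 members, grouped by role, and columns the 10 arrays. Colour gives the log2 signal minus the mean of the 2 wild-type pools, with differences beyond 4 drawn as 4. The columns of the 18-month male are blue in nearly all peroxisomal, ketogenic and microsomal rows, while the mitochondrial spiral is pale in the young arrays.

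A list of 68 other genes of fatty acid oxidation and PPAR-alpha action had 58 with a measured probe set, all of which passed the filter. In knockout against wild-type liver, 1 fell and none rose, where 0.765% of all genes passed. Retsat, the retinol saturase, was at 7512 and 8779 in the knockout pools and 21693 and 23208 in the wild-type pools (-1.46 ± 0.18, adjusted p = 0.0266). Between the sexes, 1 fell in females, Cyp4a12a, a male-biased omega-hydroxylase, at 2258 and 689 in the knockout and wild-type female pools and 18011 and 25351 in the male ones (-4.08 ± 0.46, adjusted p = 0.0308), and none rose, where 0.243% of all genes passed. None passed in the HCC, lesion or aged comparisons, where 44, 46 and 51 of the 58 were lower, with medians of -0.22, -0.29 and -0.61. Over all 11507 genes, 5788, 5613 and 4913 were lower, with medians of -0.0026, 0.01 and 0.09. Fabp1, the liver fatty acid binding protein, lay between -0.33 and 0.09 in those comparisons and in the genotype one, and Angptl4, a secreted inhibitor of lipoprotein lipase that PPAR-alpha induces, had -0.48 ± 0.17 over the 3 lesion pairs (adjusted p = 0.442).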

How the data were processed

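Liver RNA was measured on 10 Affymetrix arrays. Per the labels' protocols, the authors labelled 5 ug of total RNA, and the submitters' processing notes name GCOS (version not stated). The deposited numbers are linear intensity, with 1 signal a probe set, scaled by the authors to a trimmed mean of 500 with 2% left out at each end, as the values show. No detection calls were used.

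The table held 45101 probe sets, 34945 of them listed with 1 gene and 932 with several, by GEO's platform annotation. Per gene, the 1-gene probe set with the highest mean was used, and 11507 of 18193 genes with a mean above 91 were kept. Before log2, 16.8 was added (the 20th percentile of the table), so that differences of dim genes are understated. Signal levels were not compared between genes.

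Models were fitted with limma 3.58.1 in R 4.3.3, with eBayes(trend=TRUE) and Benjamini-Hochberg adjustment over 11507 genes. Knockout was compared with wild-type with sex as a term, the sexes with a genotype term, lesions with adjacent liver with a mouse term, and aged with young knockout liver with a sex term. There were 1 or 2 residual degrees of freedom per fit, so the p-values lean on the variance prior. Members, lists and tests were chosen with earlier results of these data known. The rule for named genes took all members, Gnmt, a few fixed genes and any called gene of the other oxidation list, and 4 clock genes, some of which are not reported here. Marker genes given singly, such as S100a8, Ngp, Fabp4, Xbp1, Tspan8 and Cidec, were named after their values were seen.

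Alternatives were the constant, the scaling, the filter, the probe set rule, the variance trend, the arrays in the fit, the mouse term, and leaving out each pool or pair.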

Additional observations from a re-analysis of the deposited data

Results flagged for a closer look

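In 3 members the HCC differed from its adjacent liver in opposite directions in the 2 mice, by at least 1.5-fold each way, with 1 array a side. Decr1, the mitochondrial dienoyl-CoA reductase, had -0.62 in the male and 0.83 in the female, a gap of -1.45 on the log2 scale. Acot2, the matrix thioesterase, had -0.71 in the male and 0.90 in the female, a gap of -1.61. Pdk4, the pyruvate dehydrogenase kinase, had -0.67 in the male and 0.69 in the female, a gap of -1.37. The difference between the mice was not tested, and the male and the female also differed in age.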

How the results depend on the processing

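Results were recomputed with each alternative. In the genotype comparison, 1 member (Acaa1a) instead of 0 was called with a smaller constant, among 133 genes in all. With quantile normalization, centring on the 75th percentile, no filter, or a filter on the mean of the log2 values, 2 were (Acot2 and Acaa1a). All genes called were 440, 215, 138 and 194 in that order. The last filter was chosen after seeing the data. Fits without 1 pool used all remaining arrays with tissue and sex terms, so that the sex term rests also on the aged arrays, whose only male is the 18-month mouse, and more than the pool changed. Their median over members was -0.31 to 0.54 for genotype. In the sex comparison 0 members were called with a larger constant, no filter or no trend, and 0 to 1 with a pool left out. Its median was 0.48 in the model over all 10 arrays and 0.55 to 0.56 in the fits without a pool, against 0.07 and 0.02 within the young knockout and wild-type pools. In HCC, a fit without 1 pair is an unpaired contrast of 1 tumour, assumed to vary like the other groups, with adjacent livers, fitted across every array left. It gave -2.49 for Cyp4a14 and 2.78 for Fgf21 without the male pair, and a median of -0.64 to -0.22. Over all lesions, where the fit stayed paired, leaving out the male pair gave 1 member, Cyp4a14, among 135 genes in all. Leaving out the female HCC pair or the nodule pair gave 0, among 2 and 10 genes. In aged against young liver, leaving out an array gave 0 to 8 members: 8 without the young female pool, where the fit reads the 18-month male against the young male pool, and 2, Acot3 and Acot1, without the 21-month female. Without the mouse as a term (no replicate block), 0 members and 0 genes were called in HCC and in all lesions. Over all genes the calls ranged from 0 to 440 for genotype (main 88), 2 to 53 for sex (28), 0 to 165 for HCC (10), 0 to 135 for all lesions (1), 0 to 354 for aged against young (0) and 0 to 3 for genotype by sex (0). The direction never turned in 10 of 31 members for genotype, 13 for sex, 14 for HCC, 17 for all lesions, and 28 for aged against young liver and for genotype by sex. These counts are no measure of robustness by themselves, since the filter and the variance trend cannot change a difference. The genotype by sex value also comes from the young arrays alone, so leaving out an aged pair could not change it. The share over all genes was not counted. The cause of these changes was not tested. Genotype by sex could not be fitted without a young pool or without the female HCC pair. Quantile normalization and centring on the 75th percentile were added after seeing the data for the counts of arrays that did not overlap. With them the 18-month male lay below the other aged arrays in 20 and 21 of 31 members, against 16.5% and 15.5% of all genes. All 3 adjacent livers lay below both young knockout pools in 16 and 21 of 31, against 12.6% and 14.6% of all genes.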
